A study of Homo sapiens with 24 samples.

Results

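The interleukin-1 (IL-1) family ligands and receptors were followed through an H3K27Ac ChIP-seq experiment, which maps histone H3 acetylated at lysine 27. That acetylation is found at promoters and enhancers that are in use. The 10 genes were IL1A, IL1B, IL1RN, IL36G, IL36B, IL36RN, IL37, IL1R1, IL1R2 and IL1RAP. A region belonged to the family when the authors' annotation placed it on a gene of the family or named such a gene as its neighbour, or when it lay between genes in the part of chromosome 2 that holds the ligand genes. The rule reads annotation and position and no measured value. It gave 145 of the 171345 regions in 6 deposited tables, with 50 of 50284 and 24 of 44790 in the tables that compared knockdown with control directly, in 10A and DCIS cells respectively.

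The libraries came from 10A (MCF10A), an immortalized, non-tumorigenic human mammary epithelial line, and DCIS (MCFDCIS), a line derived from xenografts of oncogene-transfected 10A cells that models ductal carcinoma in situ. Each line carried a lentiviral hairpin against ANCO1 (shANCO1), the product of the ANKRD11 gene, or a control hairpin against GFP (shCTRL), so infection was common to every group. Both lines were grown in the same medium with horse serum, epidermal growth factor, hydrocortisone, insulin and cholera toxin. The 24 libraries formed 8 groups of 3, an H3K27Ac immunoprecipitation and an input for each line and hairpin, input being sonicated chromatin that met no antibody. Per the study's figure legends the ChIP-seq analysis used a single shANCO1 line, so the effect of the hairpin and that of ANCO1 depletion cannot be told apart here, and an H3K27Ac table does not measure the knockdown itself. The labels do not say whether the 3 libraries of a group came from separate cultures.

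The tables hold 1 value per region for the 3 libraries of a group together. The spread between libraries and their depth were therefore unknown, and a call below means a false discovery rate (FDR) under 0.05 in the authors' csaw test over all regions of a table, with the direction they give. The log2 fold change that stands for a region was measured in 1 window of it, which the authors' table selects. These values were not centred on 0, and the 10A table had a median of 0.76 and the DCIS table one of 0.52. A region is said to be marked when the authors' table against input lists it as enriched. Of 8 genes of basal mammary epithelium, 5 had a marked region within 1 kb of a transcription start site (TSS) in 10A shANCO1 cells. In 10A shCTRL cells 4 did, and in each DCIS group 6 did. KRT5 was marked there in every group, TP63 only in 10A shANCO1 cells, CDH1 only in DCIS cells and KRT14 in no group. No TSS of 6 leukocyte and monocyte genes, 3 endothelial genes or the hormone receptor genes ESR1 and PGR was marked in any group.

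IL-1α and IL-1β, encoded by IL1A and IL1B, are inflammatory cytokines that bind IL1R1. The ligand-bound receptor recruits the accessory protein encoded by IL1RAP and signals through MYD88 and IRAK kinases to NF-κB. The family also holds brakes: the antagonist from IL1RN occupies IL1R1 without signalling, IL1R2 is a decoy that binds ligand without passing it on, IL36RN antagonises the IL-36 receptor that IL36G and IL36B activate, and IL37 dampens inflammation. Epithelial cells can store IL-1α and release it on damage, and secretion of IL-1 is a known feature of senescent cells. The ligand genes lie together on chromosome 2, IL1R2 and IL1R1 lie side by side elsewhere on that chromosome, and IL1RAP is on chromosome 3.

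In both lines regions of the family gained H3K27Ac after ANCO1 knockdown, and none lost it past the test. In 10A shANCO1 cells 34 of 50 regions were up, where 43.6% of all tested regions were, and 0 were down, where 0.225% of all tested regions were. In DCIS shANCO1 cells 16 of 24 were up against 23.6% of all tested regions, and 0 were down against 4.86%. The median log2 fold change of the family was 1.04 in 10A, or 0.28 above the median of its table, and 2.32 in DCIS, or 1.80 above. The DCIS median rests on the 11 intergenic regions of the ligand cluster: over the regions placed on a gene of the family it was 0.67, and as a median over genes 0.70, where 10A had 1.01 and 1.13. Regions were up at IL1A, IL1B, IL1R1, IL1R2 and IL1RAP in 10A. In DCIS the gain was at IL1A, in the DNA between ligand genes and inside IL1RAP, while none of the 3 regions at IL1R1 passed and no tested region lay on IL1B or IL1R2.

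DNA from selected places in these loci is shown first, read from the GRCh38 reference, with the promoters taken from RefSeq entries on GRCh38.p14. The promoters are those of the cytokine genes IL1A and IL1B and, for contrast, of IL1RAP, whose promoter region did not pass in either line. Each runs 5′ to 3′ on the strand of the gene and ends where the annotated gene begins. The other sequences are on the plus strand. They are the middle 300 bases of the intergenic region with the lowest FDR in 10A (chr2:112877551-112877850) and of the one with the lowest FDR in DCIS (chr2:112880451-112880750), the whole of the DCIS region with the largest log2 fold change (chr2:112813201-112813400), the middle of a stretch upstream of IL1A that was marked in every group but DCIS shCTRL (chr2:112794301-112794600), and the middle of an intronic IL1RAP stretch that was marked in DCIS shCTRL cells and overlaps a mark of each other group (chr3:190586251-190586550). Capitals show matches, on either strand, to short motifs of transcription factor families that the study examined: AP-1 (TGACTCA or TGAGTCA), TEAD (CATTCCA or CATTCCT), STAT3 (TTCNNNGAA) and NF-κB, whose pattern has 10 letters. No matches overlapped one another.
IL1A promoter, chr2:112784494-112784743: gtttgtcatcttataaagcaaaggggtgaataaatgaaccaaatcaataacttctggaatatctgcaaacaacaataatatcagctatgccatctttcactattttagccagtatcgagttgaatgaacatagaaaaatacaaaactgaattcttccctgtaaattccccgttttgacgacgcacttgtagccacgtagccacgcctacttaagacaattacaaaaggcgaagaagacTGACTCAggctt
IL1B promoter, chr2:112836817-112837029: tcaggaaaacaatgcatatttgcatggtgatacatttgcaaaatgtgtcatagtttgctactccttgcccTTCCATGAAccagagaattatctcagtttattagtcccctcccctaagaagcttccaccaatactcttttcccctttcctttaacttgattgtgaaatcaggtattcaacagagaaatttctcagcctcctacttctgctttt
IL1RAP promoter, chr3:190513835-190514050: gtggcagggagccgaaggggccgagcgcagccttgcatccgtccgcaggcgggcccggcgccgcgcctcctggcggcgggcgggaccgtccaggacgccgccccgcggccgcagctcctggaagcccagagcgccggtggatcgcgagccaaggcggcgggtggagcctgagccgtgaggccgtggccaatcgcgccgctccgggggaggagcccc
10A intergenic, lowest FDR: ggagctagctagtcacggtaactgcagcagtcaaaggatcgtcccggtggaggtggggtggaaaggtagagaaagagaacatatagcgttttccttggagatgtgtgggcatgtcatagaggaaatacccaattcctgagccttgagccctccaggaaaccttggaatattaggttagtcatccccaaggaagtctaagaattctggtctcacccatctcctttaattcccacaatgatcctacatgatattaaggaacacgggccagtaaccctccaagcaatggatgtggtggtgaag
DCIS intergenic, lowest FDR: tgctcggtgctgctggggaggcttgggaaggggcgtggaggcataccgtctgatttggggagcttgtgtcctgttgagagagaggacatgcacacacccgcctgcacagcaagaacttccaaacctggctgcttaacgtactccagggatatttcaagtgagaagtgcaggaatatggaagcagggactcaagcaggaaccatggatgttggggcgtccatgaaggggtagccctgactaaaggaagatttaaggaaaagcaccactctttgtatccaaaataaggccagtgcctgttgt
DCIS intergenic, largest change: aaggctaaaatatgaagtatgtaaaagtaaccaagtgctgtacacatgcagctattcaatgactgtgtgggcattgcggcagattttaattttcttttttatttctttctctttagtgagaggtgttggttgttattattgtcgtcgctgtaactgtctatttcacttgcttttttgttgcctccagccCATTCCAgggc
Upstream of IL1A: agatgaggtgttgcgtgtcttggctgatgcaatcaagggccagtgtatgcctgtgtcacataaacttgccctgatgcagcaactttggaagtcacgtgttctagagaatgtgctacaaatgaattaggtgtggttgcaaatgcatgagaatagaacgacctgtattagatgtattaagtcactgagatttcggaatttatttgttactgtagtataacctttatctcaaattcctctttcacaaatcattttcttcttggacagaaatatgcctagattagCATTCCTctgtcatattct
IL1RAP intron: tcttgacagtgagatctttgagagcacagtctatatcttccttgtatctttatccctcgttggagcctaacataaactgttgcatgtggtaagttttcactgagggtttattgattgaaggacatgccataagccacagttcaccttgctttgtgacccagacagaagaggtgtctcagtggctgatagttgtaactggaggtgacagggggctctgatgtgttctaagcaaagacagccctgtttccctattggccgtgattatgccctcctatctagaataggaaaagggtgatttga

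The IL1A promoter held 1 AP-1 match just before the TSS, and the IL1B promoter held 1 STAT3 match. Promoter entries, 300 bases from 250 before to 50 after a TSS, were found for 9 of the 10 genes, 18 entries in all, IL36B being the one without. An AP-1 match stood in 3 of the 18, a STAT3 match in 2, an NF-κB match in 2 and a TEAD match in 1, and both IL1A entries held 2 AP-1 matches. Over all 35116 promoter entries the shares were 4.95%, 7.66%, 11.3% and 8.65% in that order. The IL1RAP promoter shown has a GC content of 79.2% and holds none of the motifs, whereas that of IL1A has 37.6%. Whether these features went with gain was not tested, and several of the genes had no tested region. An IL1R1 entry (chr2:102142496-102142795) has 77.7% and no motif, and lay in a 10A region that was up by 0.98. The AP-1 entry outside IL1A was at IL1RN, whose only tested 10A region had 0.099 (FDR 0.834). The entries of a gene overlap in part, so these counts are a description.

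IL1A, an alarmin-type cytokine gene on the minus strand (chr2:112773925-112784493), gained H3K27Ac in both lines. In 10A its 3 regions were all up, with log2 fold changes of 1.50, 1.41 and 1.19. The region over the TSS (chr2:112781201-112785200), which spans coding and untranslated exons, was up by 1.41 with an FDR of 3.91e-07, rank 130 of the table, and 37 of its 39 windows were up. In DCIS both regions at the gene were up. The one nearest the TSS (chr2:112783401-112784400) rose by 4.64 on the log2 scale with an FDR of 1.03e-13, rank 35, with 9 of 9 windows up. It ended 93 bases inside the gene, so the promoter bases shown above lay inside the 10A region but outside the DCIS one. The other DCIS region (chr2:112782301-112783000), over a coding exon, had a value of 2.72 (FDR 6.37e-05).

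Against input, the start of IL1A was already marked in 10A shCTRL cells, over 1600 bp at 4.95 log2 units above input, and in 10A shANCO1 cells over 3100 bp at 5.17. In DCIS the start was marked in shANCO1 cells, over 800 bp at 5.16, and no region at IL1A was listed for shCTRL. These values come from separate tables and were not tested against each other.

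IL1B encodes the main secreted IL-1 cytokine and is also read from the minus strand (chr2:112829751-112836816). All 3 of its regions were up in 10A. The one with the lowest FDR (chr2:112838101-112840900) lay 2.72 kb upstream of the TSS by its midpoint and rose by 1.91 with an FDR of 1.26e-07, rank 66, with 24 of 24 windows up. The region over the TSS (chr2:112833101-112837700) rose by 1.62 (FDR 2.44e-06), and the third (chr2:112841201-112841800) by 1.04 (FDR 0.0115). IL1B was marked in 1 region of 400 bp in 10A shCTRL cells and in 4 regions, 4300 bp together, in 10A shANCO1 cells. The marked length over all 10A regions was longer in shANCO1 cells as well, at 25236900 bp against 9034000 bp in shCTRL cells. No region of either DCIS input table lay on IL1B, and none was tested there in the direct DCIS table.

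The other ligand genes among the 10 gave little. IL1RN, the receptor antagonist, had a single tested region in 10A (chr2:113118001-113118200), 1 window over exonic sequence next to a TSS. Its log2 fold change was 0.099 (FDR 0.834), and it was marked in neither 10A group. DCIS had no tested region on IL1RN. IL36RN was named only as a neighbour, by a 10A region of 300 bp (chr2:113072301-113072600) on IL1F10 that was up by 1.39 (FDR 0.00317). IL1F10 is a ligand gene outside the 10. In DCIS 2 of 2 tested regions on IL1F10 were up, the one with the lowest FDR by 3.39 (FDR 1.14e-10). None of the regions analysed here was placed on, or named, IL36G, IL36B or IL37. Between IL37 and IL36RN, a stretch of 154 kb, neither direct table had a tested region. The longest stretch without one in the ligand cluster ran 181 kb in 10A and 185 kb in DCIS. Since windows were filtered before testing by a rule that is not stated, this says only that no region there was analysed here.

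**Figure D1:**
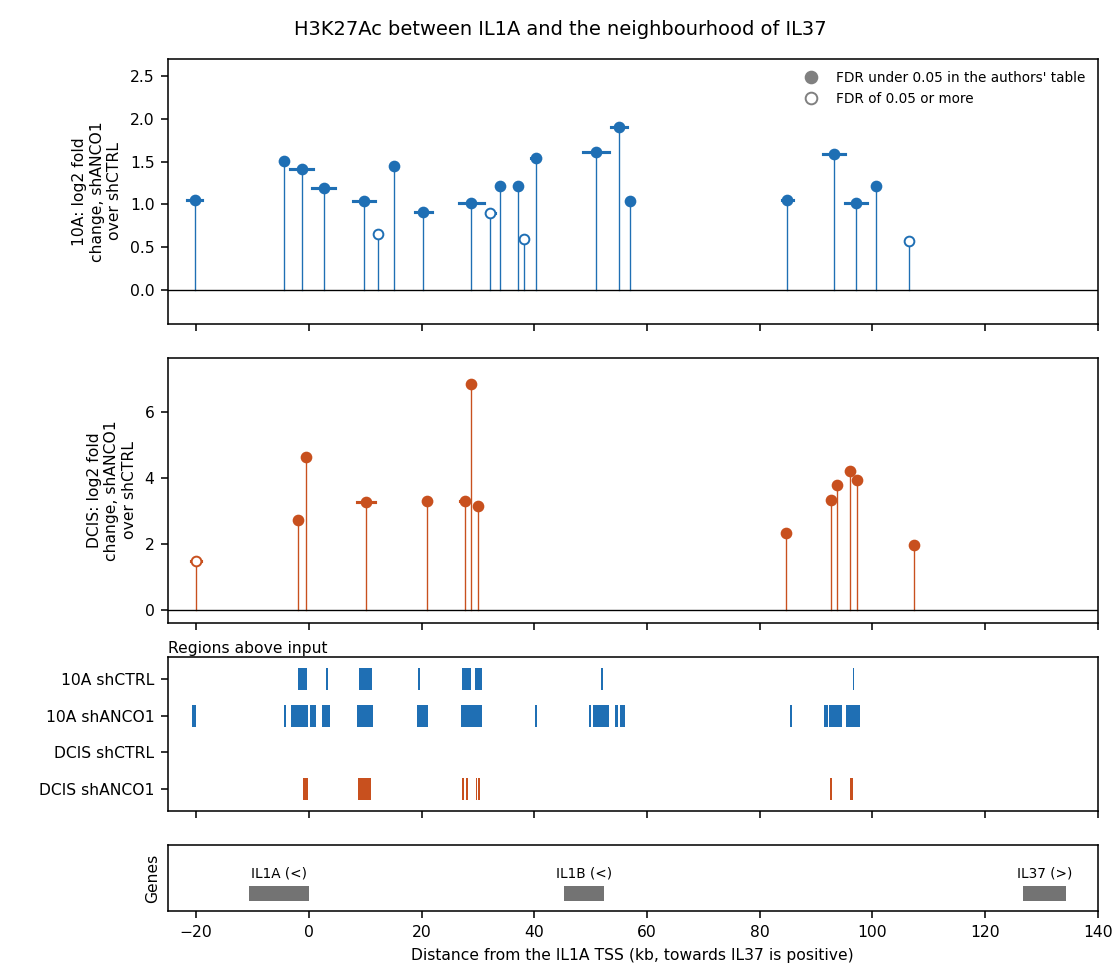
H3K27Ac around IL1A and IL1B, by distance from the IL1A TSS in kb. Upper panels show the log2 fold change of each tested region, shANCO1 over shCTRL, in 10A (blue) and DCIS (orange) on separate scales, with a horizontal line for the width of the region and a filled circle for an FDR under 0.05. The tracks show the regions above input in each group, and the grey bars the genes, with < for the minus strand. DCIS values reach 6.84 and 10A values 1.91, and the DCIS shCTRL track is empty.

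The DNA between the ligand genes held 11 of the family's 34 up regions in 10A and 11 of its 16 in DCIS. Intergenic here follows the authors' annotation. In GENCODE the 10A regions within chr2:112815901-112825600 overlap a further gene, ENSG00000287937. In 10A 11 of 15 intergenic regions were up, against 43.6% of all tested regions. Values over all 15 ran from 0.57 to 1.59, with a median of 1.04, as over the whole family. The lowest FDR and the largest value both belonged to a region 93.2 kb from the IL1A TSS, towards IL37 (chr2:112875701-112879700). It rose by 1.59 with an FDR of 1.99e-09, rank 6 of 50284 regions, and 36 of its 39 windows were up. Its centre is among the sequences shown and held none of the motifs. It was marked over 2800 bp in 10A shANCO1 cells and not in 10A shCTRL cells.

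In DCIS all 11 intergenic regions were up, where 23.6% of all tested regions were. All of their 95 windows were up, and values ran from 1.97 to 6.84. The lowest FDR, 1.12e-14 at rank 16, was at chr2:112879901-112881300, 96.1 kb from the IL1A TSS, which rose by 4.22. The largest value, 6.84 (FDR 3.42e-11), was at chr2:112813201-112813400, 28.8 kb from that TSS. It rests on 1 window of 200 bp, and the prior count behind such a value is not stated. Its neighbours on each side, at chr2:112811401-112812900 and chr2:112813901-112815000, had 3.29 and 3.14. Nearer to IL1A, chr2:112793101-112796300 had 3.25 (FDR 3.15e-09) with 30 of 30 windows up, and chr2:112804701-112806100 had 3.30 (FDR 2.88e-08). At 92.7 to 97.3 kb from the IL1A TSS, 4 regions had values of 3.32, 3.79, 4.22 and 3.95.

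Both intervals that flank IL1B held such gains. Between IL1A and IL1B all 5 DCIS regions were up, with a median of 3.29, and 8 of 11 10A regions were, with a median of 1.04. Between IL1B and IL37 all 6 DCIS regions were up (median 3.56) and 6 of 7 in 10A (median 1.05). Beyond the other edge of IL1A, the region over CKAP2L that names IL1A as its neighbour was up in 10A at 1.05 (FDR 0.0231) and had 1.47 in DCIS (FDR 0.138). At 6 genes on the flanks of the cluster 6 of 13 regions were up in 10A, near the 43.6% of its table, and 7 of 15 in DCIS, against 23.6%.

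Against input the family's regions at the ligand cluster were 8, 8100 bp together, in 10A shCTRL cells and 17, 25700 bp, in 10A shANCO1 cells. The 17 include a region of 800 bp outside the cluster, over CKAP2L, that names IL1A as its neighbour. All of these passed, as did 100% of the listed regions in each input table after rounding, since the input tables list almost only enriched regions. Over the whole 10A tables the marked length was 9034000 bp in shCTRL and 25236900 bp in shANCO1, so the longer mark in the cluster went with a longer mark overall. In DCIS the family had 0 marked regions there in shCTRL cells and 8, 5200 bp together, in shANCO1 cells. A further DCIS shANCO1 region of 400 bp at IL1F10 names no gene of the family and was not counted, and with it the cluster held 9 regions and 5600 bp. For DCIS the whole tables held 10953200 bp and 11864500 bp. The shANCO1 immunoprecipitated libraries enter both the direct and the input comparison, so these comparisons are not independent.

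A higher value in the direct comparison did not always go with a higher value above input. The stretch 9.86 kb upstream of IL1A (chr2:112792401-112796300) was up in 10A by 1.04, yet its listed value above input was 5.40 over 2300 bp in shCTRL cells and 4.03 over 2800 bp in shANCO1 cells. The same stretch was 7.79 above input in DCIS shANCO1 cells and not listed in DCIS shCTRL cells. Each table gives its own representative window, so the input values can refer to different bases.

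**Figure D2:**
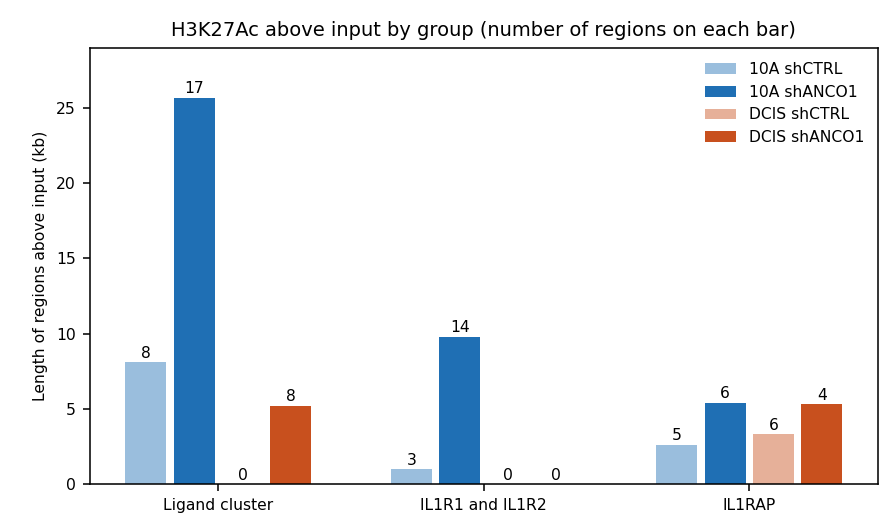
Length of the regions above input, in kb, at the ligand cluster, at IL1R1 and IL1R2 and at IL1RAP in the 4 groups, with the number of regions on each bar. The ligand cluster went from 8 to 17 regions in 10A and from 0 to 8 in DCIS. IL1R1 and IL1R2 were marked in 10A and in neither DCIS group, and IL1RAP was marked in all 4 groups.

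The receptors IL1R1, which signals, and IL1R2, the decoy, gained in 10A. Of 19 regions at the pair 12 were up, where 43.6% of all tested regions were. Their median was 0.98, against 0.76 over all tested regions. At IL1R2 (chr2:101991960-102028544) 6 of 7 regions were up, and the one with the lowest FDR (chr2:102017801-102021300), over a coding exon, rose by 2.21, the largest value of the family in 10A, with an FDR of 1.15e-06 and 30 of 31 windows up. The region over the first TSS (chr2:101991901-101992400) rose by 1.34 (FDR 0.00621), with 2 of 4 windows up. The region that did not pass, 1 window upstream of the gene, had -0.36 (FDR 0.423). IL1R2 had 0 marked regions in 10A shCTRL cells and 6, 3000 bp together, in 10A shANCO1 cells, where the marked length over all regions was longer too.

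At IL1R1 (chr2:102064544-102179874) 6 of 11 regions were up in 10A, near the 43.6% of all tested regions. Values over all 11 ran from 0.34 to 1.43, with a median of 0.93 against 0.76 over all tested regions. The lowest FDR, 7.07e-05, was at chr2:102062001-102066800, which rose by 1.34 with 41 of 47 windows up. The gene has several TSSs, and the region with the largest overlap (chr2:102142101-102143500) rose by 0.98 (FDR 0.00464). At other starts, chr2:102070301-102070500 rose by 0.93 (FDR 0.038), and chr2:102103901-102105200 had 0.82 and did not pass (FDR 0.193). The largest value, 1.43 (FDR 0.000152), was in an intron (chr2:102081601-102083600). That intronic region stood 7.71 log2 units above input in shANCO1 cells, the highest value of the family in 10A, and had no mark in shCTRL cells. IL1R1 had 3 marked regions of 1000 bp in 10A shCTRL cells and 6 of 6000 bp in 10A shANCO1 cells, again beside a longer mark over all regions.

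In DCIS no region at the receptor pair passed. IL1R1 had 3 tested regions with values of 0.64, -0.88 and -0.18, and the lowest FDR among them was 0.207. All 3 overlapped 10A regions that were up, at 1.34 and 0.98. IL1R2 had no tested region in DCIS, and neither gene was marked in either DCIS group. Where no mark is listed, the level there was not analysed here.

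**Figure D3:**
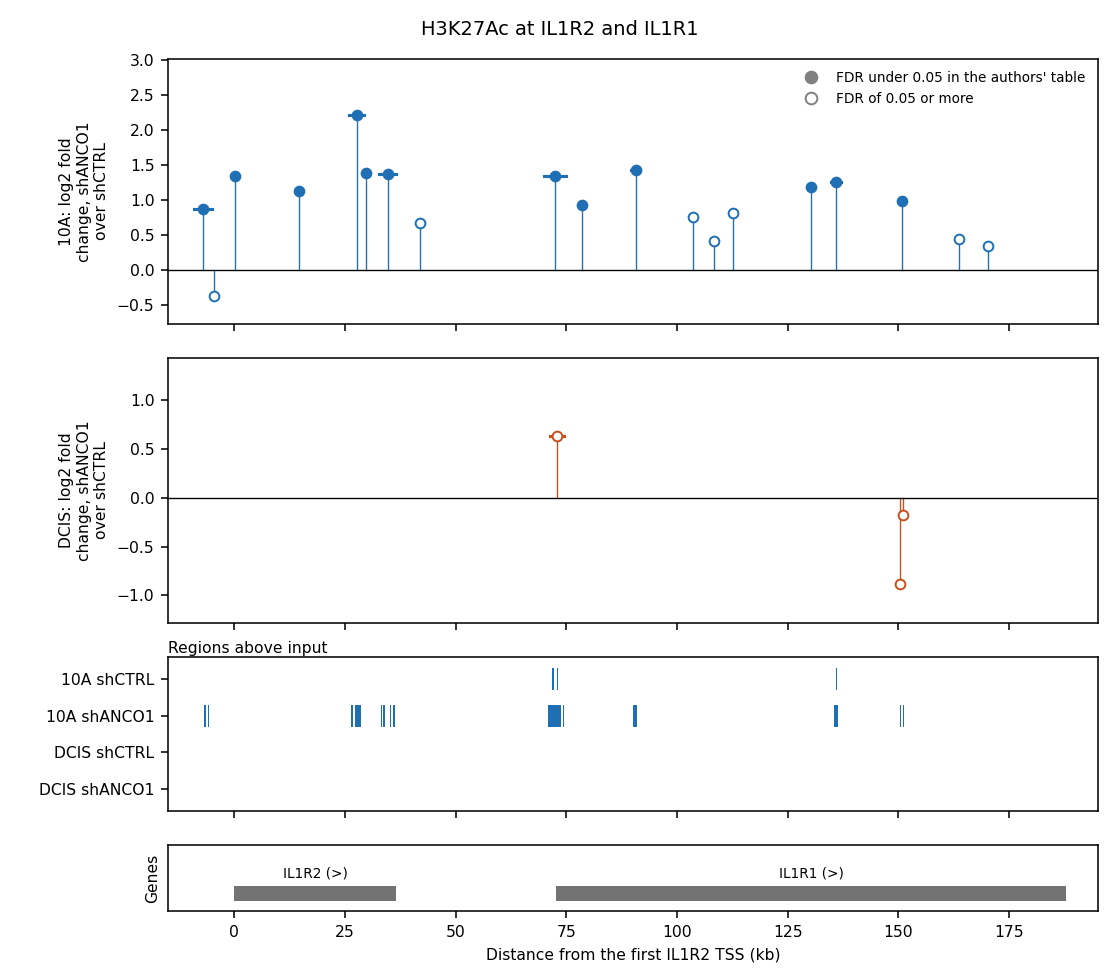
H3K27Ac at IL1R2 and IL1R1, by distance from the first IL1R2 TSS in kb, with log2 fold changes of shANCO1 over shCTRL for 10A and DCIS on separate scales, regions above input and genes. Horizontal lines give the width of a region, and filled circles an FDR under 0.05. In 10A 12 of 19 regions are filled, and in DCIS 0 of 3.

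IL1RAP, the accessory chain that IL1R1 needs for signalling (chr3:190514051-190659750), had 3 of 7 regions up in each line, a share near that over all tested regions in 10A (43.6%) and above it in DCIS (23.6%). The up regions lay inside introns, and the promoter region was not among them. Over the TSS the 10A region (chr3:190513001-190515600) had 0.59 with an FDR of 0.186, and the DCIS region (chr3:190513101-190516100) had -0.014 with an FDR of 0.998. The TSS was marked in 10A shANCO1 cells and in both DCIS groups, and not in 10A shCTRL cells.

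The intronic regions that rose overlapped between the lines. At 20.0 kb from the TSS, by the midpoint in 10A, the 10A region (chr3:190532701-190535500) rose by 0.67 (FDR 0.0287) and the DCIS one (chr3:190532001-190535800) by 1.63 (FDR 1.81e-05). At 52.5 kb the values were 0.82 (chr3:190565401-190567800, FDR 0.0363) in 10A and 1.24 (chr3:190565301-190568400, FDR 0.0122) in DCIS. At 72.8 kb 10A had 1.40 (chr3:190586001-190587900, FDR 3.57e-05, 18 of 18 windows up) and DCIS had 2.31 (chr3:190585201-190587600, FDR 6.09e-05, 18 of 23). All 3 sites were marked in shCTRL cells of both lines as well. The marks covered 2600 bp in 10A shCTRL, 5400 bp in 10A shANCO1, 3300 bp in DCIS shCTRL and 5300 bp in DCIS shANCO1 cells over the gene. Marked length over all regions was also longer in shANCO1 cells, as given above for each line. At the farthest site the DCIS value above input was 7.19 over 400 bp in shCTRL and 6.34 over 1400 bp in shANCO1 cells.

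**Figure D4:**
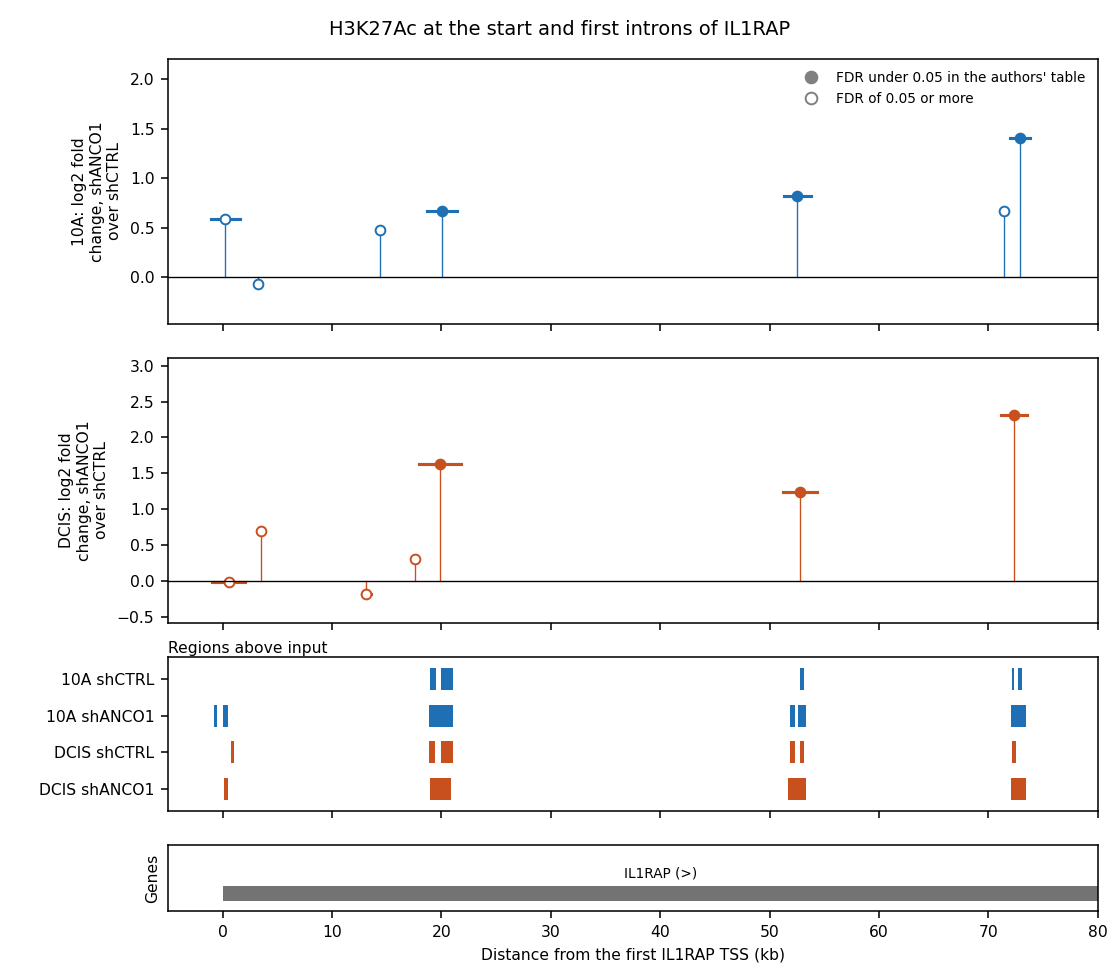
H3K27Ac over the start and early introns of IL1RAP, by distance from its first TSS in kb, drawn as log2 fold changes of shANCO1 over shCTRL in each line, regions above input and the gene. Horizontal lines give the width of a region, and filled circles an FDR under 0.05. The 3 filled circles stand at the same places in 10A and DCIS, and the circle at the TSS is open in both.

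To set the lines side by side, each DCIS region was paired with the 10A region it shared most bases with. This gave 21 DCIS regions on 15 10A regions, of which 15 were up in both lines, 4 in 10A but not in DCIS and 2 in neither. At the ligand cluster 13 DCIS regions fell on 8 10A regions, and 12 of the 13 were up in both. The DCIS value was the higher in 13 of 13. The medians were 1.04 in 10A, where a region counts once per pair, and 3.30 in DCIS. Over all tested regions values ran from -1.65 to 3.76 in 10A and from -7.39 to 7.80 in DCIS. The share of pairs with a higher DCIS value was not computed over them. At IL1RAP 3 of 5 were up in both and the DCIS value was the higher in 4. At IL1R1 the DCIS value was the lower in all 3 pairs. Values from separate tables with their own scaling are compared here, values per library were not used here, and the difference between lines was not tested.

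**Figure D5:**
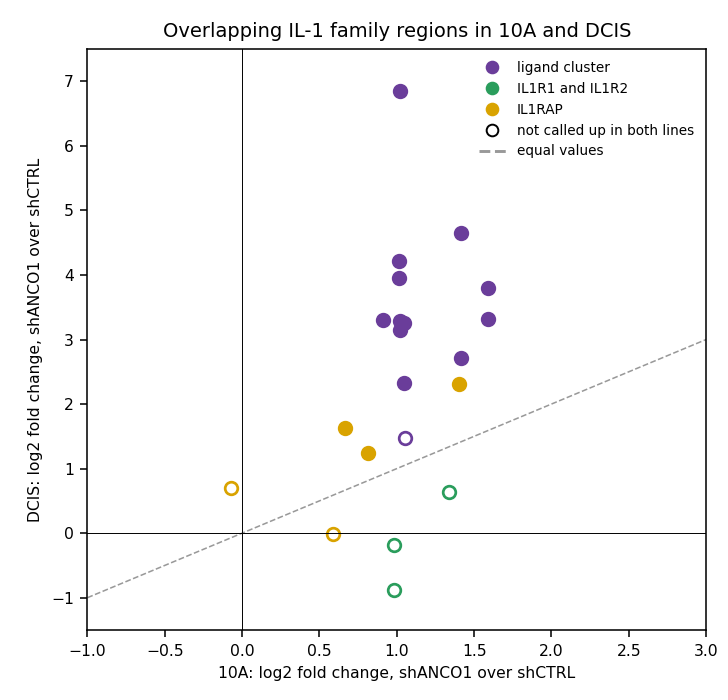
Log2 fold changes of shANCO1 over shCTRL for the 21 DCIS regions (y axis) against the 10A region each overlaps most (x axis), coloured by locus. Filled points were up in both lines, and the dashed line marks equal values. The ligand cluster lies above the line, the IL1R1 pairs below it, and several points share a 10A region.

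Changed regions were also set against the marks. In 10A 24 of the 50 regions overlapped a region marked in shANCO1 cells, where 45.2% of all tested regions did, and 12 overlapped one marked in shCTRL cells, against 23.5%. Of the 34 up regions 23 overlapped a shANCO1 mark and 11 overlapped neither. In DCIS 10 of 24 overlapped a shANCO1 mark, against 30.3% of all tested regions, and 4 a shCTRL mark, against 27%. Those 4 were all at IL1RAP. Of the 16 up regions 9 overlapped a shANCO1 mark, 3 a shCTRL mark and 7 neither. Up regions without a mark, such as the DCIS region with 6.84, thus had no listed enrichment over input in either group.

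Region width went with the calls in 10A. Of 31 family regions with at least 5 windows 27 were up, against 7 of 19 with fewer, and their medians were 1.12 and 0.66. In DCIS the counts were 10 of 14 and 6 of 10. The shares up over all tested regions of these widths were not computed, so the counts do not set the family apart. In 10A the median width was 1400 bp in the family and 1000 bp over all tested regions. The part of width in the calls was not tested.

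The values were also read against the general shift of each table. A log2 fold change of at least 1 with the FDR, without centring, left 28 of the 34 up regions of 10A and all 16 of DCIS. When the values were centred on the median of each table and at least 1 log2 unit above it was required with the FDR, 2 of the 50 10A regions remained up, the IL1R2 exon region at 1.45 above the median and the IL1B upstream region at 1.14. In DCIS 15 of 24 remained. The FDR still tests against 0 in this count. Shares over all tested regions at these thresholds were not computed. The counts therefore do not show whether the family stands above or below its table in either line.

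The midpoints of the regions were searched for the same motifs, in 300 bases each. In 10A an AP-1 match was in 5 of 50 windows of the family (11.1% of all tested regions), a TEAD match in 6 (12.5%), a STAT3 match in 9 (9.69%) and an NF-κB match in 1 (8.42%). In DCIS the counts of 24 were 0 for AP-1 (9.40%), 5 for TEAD (11.9%), 4 for STAT3 (8.68%) and 4 for NF-κB (9.52%), and all 4 NF-κB matches were in the ligand cluster. The median GC content of these windows was 44% in 10A and 46.3% in DCIS, and 46.7% and 50.3% over all tested regions. These are letters in a window and not bound sites.

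Other genes of the pathway were read from a list of 28. In 10A 24 had a tested region in the annotation and 20 of these had an up region, where 71.4% of all gene symbols with a region did, and 0 had a down region, against 0.427%. In DCIS 20 had a region, 10 an up region (28.7% of all symbols) and 1 a down region (6.35%). Of the family itself 5 of 6 genes with a region had an up region in 10A and 2 of 3 in DCIS. The region with the lowest FDR passed in both lines, and was up, for 10 genes of the list. They included IL1F10, which encodes the ligand IL-38, at 1.39 in 10A and 3.39 in DCIS (chr2:113078101-113080000, FDR 1.14e-10).

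In the sentences that follow each value is the log2 fold change of the gene's region with the lowest FDR, which need not lie at its TSS. Among the signalling genes, the adaptor MYD88 had 0.88 in 10A and 1.32 in DCIS. The kinase genes IRAK1 and IRAK2 had 0.90 and 1.76 in 10A and 1.50 and 2.72 in DCIS, and IRAK2 had 10 of 12 regions up in 10A and 5 of 8 in DCIS. TAB2 and TAB3, adaptors of the TAK1 kinase, had 1.14 and 1.02 in 10A and 2.33 and 1.60 in DCIS. TOLLIP, which restrains receptor signalling, had 0.91 and 1.65. CAPN2, a calpain subunit, had 1.08 and 1.84, with 7 of 15 and 7 of 16 regions up. NFKBIZ, an inducible IκB-type regulator, had 1.16 and 2.17. ZC3H12A, a ribonuclease that degrades cytokine mRNA, had 1.30 and 1.14. The regions over the TSS of these genes were counted as well. The genes had been chosen for an up region in each line, so these counts follow in part from the choice. In 10A the chosen region was itself the one over the TSS for IL1F10, MYD88, IRAK1, TOLLIP, CAPN2, NFKBIZ and ZC3H12A. In DCIS that held only for CAPN2. No share over the TSS regions of all genes was computed. In 10A all 10 genes had a tested region over the TSS, and all 10 were up. In DCIS 9 had one, of which 2, at TAB3 and CAPN2, were up and 7 did not pass. Among the 7, MYD88 had -0.73 (FDR 0.535) and TOLLIP had 1.31 (FDR 0.0628). The difference between lines was not tested. The down region of the list was at IRAK1 in DCIS (chrX:154017101-154019500) with -1.88 and an FDR of 0.0480, where 1 of 23 windows was down.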

How the data were processed

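H3K27Ac ChIP-seq was read from 6 tables of regions. According to the methods, alignment to GRCh38 used BWA and Rsubread, duplicate reads were dropped by samtools, and csaw tested binding between groups. Each deposited log2 value belongs to 1 representative window of its region, first group over second. The deposited p-value and FDR combine its windows, and the deposited counts of windows tested, up and down are not counts of reads. Normalization, window filter, merging distance and prior count are not given in the sources used here, and depth and spread were unknown. Direct tables hold the authors' own comparison, used here because each file holds 1 value per region.

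The 10 genes, the lists, the motifs and the alternatives were chosen with earlier results of these data known. Family regions were those whose overlap, left or right annotation named a gene of the family, plus intergenic ones in the ligand cluster. Described in full were, for each gene and line, the region over the TSS (largest overlap with 1 kb on each side in GENCODE release 44) and the one with the lowest FDR, the intergenic regions with the lowest FDR and largest change, and list genes called in both lines or down. Other genes and regions named were chosen after their values were seen. Calls used an FDR under 0.05 and the authors' direction, overlap was at least 1 bp, and no test was added. No region ran past a chromosome end of hg38 (0 regions). Alternatives were other FDR thresholds, a minimum change, direction by sign, at least 5 windows, overlap annotation only and centring on the table median. The selection, overlap and motif steps were tested on simulated data with Python 3.11.15, pandas 2.3.3 and numpy 2.4.6, and figures used matplotlib 3.10.9.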

Additional observations from a re-analysis of the deposited data

How the results depend on the processing

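Values per library were not used here, so leaving out a replicate was not possible. No paired analysis was possible because the results come from deposited tables with 1 value per region for all libraries of a group. Of 60 alternative values for counts and medians, 40 were the same or within the allowed range of the reported value and 20 moved. The range was wide for counts, while medians had to match after rounding. For example, 26 up regions in place of 34 in 10A, and 7 list genes in place of 10 in DCIS, were within it. Some of the 40 were fixed in advance. An FDR under 0.01, a minimum change alone, at least 5 windows and overlap annotation only each remove regions, so 0 down regions stayed 0. An FDR under 0.1, direction by sign and centring with a minimum change were able to give down regions, and each gave 0 in both lines. All marked regions of the family had an FDR of 1.91e-08 or lower, so an FDR under 0.01 left their counts as they were.

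Centring on the table median together with a minimum change of 1 lowered the up regions of 10A from 34 to 2, where the minimum change alone left 28. Centring alone took the medians to 0.28 in 10A and 1.80 in DCIS. Counting only regions placed on a gene of the family gave 21 up in 10A and 5 in DCIS, medians of 1.01 and 0.67, and 5 marked regions in DCIS shANCO1, since it drops the intergenic DNA. At least 5 windows gave 10 up in DCIS, medians of 1.12 in 10A and 2.72 in DCIS, and 19, 6, 5 and 2 marked regions in 10A shANCO1, 10A shCTRL, DCIS shANCO1 and DCIS shCTRL. An FDR under 1e-10 left 24 marked regions in 10A shANCO1 and 7 in 10A shCTRL. A median over genes gave 1.13 in 10A and 0.70 in DCIS. An FDR under 0.01 left 13 list genes with an up region in 10A. Reading IL1RAP at its TSS in place of its lowest FDR turned the DCIS value from 1.63 to -0.014 and took the 10A value from 1.40 to 0.59, neither past the threshold. The causes of the other changes were not tested.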
